A study of Mus musculus with 2 samples.

Results

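The Rab genes encode the largest family of small GTPases in mammals, and the EGR1 peaks assigned to them in mouse frontal cortex are described here. Members were the protein-coding genes of GENCODE release M21 whose symbol is Rab followed by a digit, without 10 genes named after Rab proteins that encode interacting proteins or effectors (Rab11fip1 to Rab11fip5, Rab3gap1, Rab3gap2, Rab3il1, Rab3ip and Rab5if). This gave 59 Rab genes of 21938 protein-coding genes. Among the 12014 EGR1 peaks, 53 had their centre in the body of a Rab gene or within 10 kb of one of its transcription start sites (TSSs), and no peak belonged to more than 1 Rab gene.

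The binding of EGR1 was profiled by ChIP-seq in the frontal cortex of 6-week-old males, F1 hybrids of C57BL/6N fathers and 129SvEv mothers (strain C57BL6N/129SvEv). There were 2 ChIP experiments, each on pooled cortices of 4 to 5 mice, and the peaks come as 1 list merged over both. The labels name no treatment and no other genotype, and the input DNA sample was not analysed here. The chromatin came from whole dissected tissue, so neurons and glia are mixed, and a peak list holds no levels by which the tissue could be checked against its marker genes. The list gives the position of each peak and its irreproducible discovery rate (IDR), a measure of how well the replicates agree that is read like a q-value, with low values for the most reproducible peaks. Read depth is unknown, no value per replicate was available, and no test was run. Intervals given with shares are 95% Wilson intervals, which cover counting error over genes or peaks only, not the error between mice.

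Rab proteins cycle between a GTP-bound active and a GDP-bound inactive form. They are anchored to membranes by prenyl groups, are switched on by guanine nucleotide exchange factors and off by GTPase-activating proteins, and recruit effectors that move, tether and fuse vesicles. Each Rab marks particular compartments, and in neurons members of the family act in synaptic vesicle exocytosis and in the endosomal traffic of receptors. EGR1 is a zinc-finger transcription factor encoded by an immediate early gene that responds to neuronal activity, and it binds a GC-rich word, searched here as GCGTGGGCG or GCGGGGGCG on either strand.

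An exact copy of this word was found in 8 of the 53 Rab peaks. Of the 8 sites, 7 are printed below because they are where the known binding word of EGR1 meets a Rab locus. Each line gives 29 bases of GRCm38 (mm10) from 5′ to 3′ on the strand that carries the word, which is in capitals, and the lines are in order of IDR. The lines run from Rab26 at chr17:24533721-24533749 (minus strand) and Rab28 at chr5:41708487-41708515 (plus) to Rab40c at chr17:25913664-25913692 (minus). The later lines are Rab39 at chr9:53706462-53706490 (plus), Rab24 at chr13:55330154-55330182 (plus), Rab1b at chr19:5097965-5097993 (plus) and Rab4b at chr7:27166769-27166797 (minus).
Rab26: ctgtggggacGCGGGGGCGgggcaggcac
Rab28: tgaaagaggcGCGGGGGCGgggtctgttt
Rab40c: tatgaggttgGCGGGGGCGgagcatccac
Rab39: cattggtcgtGCGGGGGCGgggcctctaa
Rab24: gacgaggaggGCGGGGGCGagctacgaga
Rab1b: ccacagacagGCGGGGGCGgtgaaggaag
Rab4b: agcgggcgagGCGGGGGCGgggcgtcgcg
All 8 sites read GCGGGGGCG and none GCGTGGGCG. In 4 of the genes (Rab26, Rab28, Rab39 and Rab40c) the peak lay within 2 kb of a TSS of the Rab gene. In the other 4 (Rab19, Rab24, Rab1b and Rab4b) it lay farther away, near the TSS of a neighbouring gene.

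The whole peak is shown for the 3 sites near a TSS of the Rab gene whose peak lies outside annotated UTRs. Each is on the strand of the Rab gene, with the word in capitals. They are Rab28 at chr5:41708387-41708636, Rab40c at chr17:25913633-25913814 and Rab39 at chr9:53706395-53706525, all on the minus strand of GRCm38 (mm10). The Rab40c peak lies at the TSS of a non-coding transcript, 6095 bp inside the gene. In Rab28 and Rab39 the word reads on the strand opposite to the gene, so it appears here as its reverse complement.
Rab28: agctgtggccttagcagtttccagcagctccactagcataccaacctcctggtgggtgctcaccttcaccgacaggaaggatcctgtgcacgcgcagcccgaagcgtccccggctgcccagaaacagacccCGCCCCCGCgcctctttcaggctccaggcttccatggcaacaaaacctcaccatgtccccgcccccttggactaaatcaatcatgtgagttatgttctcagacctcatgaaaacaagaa
Rab40c: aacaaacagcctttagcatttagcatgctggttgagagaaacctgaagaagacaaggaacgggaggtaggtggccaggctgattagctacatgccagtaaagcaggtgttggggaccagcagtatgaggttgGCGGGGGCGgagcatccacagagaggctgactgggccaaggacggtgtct
Rab39: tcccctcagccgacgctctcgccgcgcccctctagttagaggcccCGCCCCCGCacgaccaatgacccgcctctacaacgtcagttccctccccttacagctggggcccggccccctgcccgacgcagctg
The most reproducible Rab peaks include some with no exact word. The 4 peaks within 2 kb of a Rab TSS with the lowest IDR among those without it are shown in the same way, chosen after their values were seen, with each stretch that differs from the word at 1 base in capitals. They are Rab22a at chr2:173659588-173659759 (plus strand), Rab6a at chr7:100607209-100607409 (plus), Rab40b at chr11:121388275-121388448 (minus) and Rab3a at chr8:70753212-70753461 (plus). The Rab22a and Rab6a peaks run on into the 5′UTR, which is left out.
Rab22a: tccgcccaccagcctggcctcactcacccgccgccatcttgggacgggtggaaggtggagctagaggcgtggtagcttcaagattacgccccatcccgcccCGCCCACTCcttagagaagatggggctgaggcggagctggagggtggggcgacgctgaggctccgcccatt
Rab6a: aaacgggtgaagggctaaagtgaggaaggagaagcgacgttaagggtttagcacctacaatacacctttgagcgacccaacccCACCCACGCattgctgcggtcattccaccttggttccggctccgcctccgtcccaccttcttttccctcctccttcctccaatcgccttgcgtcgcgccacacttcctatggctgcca
Rab40b: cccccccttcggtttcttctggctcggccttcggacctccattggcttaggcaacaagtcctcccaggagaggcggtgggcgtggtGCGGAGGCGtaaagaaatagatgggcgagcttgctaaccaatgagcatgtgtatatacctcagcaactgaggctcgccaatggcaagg
Rab3a: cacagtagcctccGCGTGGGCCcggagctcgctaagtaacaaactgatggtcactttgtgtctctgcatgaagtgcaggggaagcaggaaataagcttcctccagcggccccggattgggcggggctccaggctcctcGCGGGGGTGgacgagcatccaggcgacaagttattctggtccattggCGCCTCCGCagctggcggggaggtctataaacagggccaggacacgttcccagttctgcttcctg
The Rab22a stretch holds 1 of the 4 such sites of its peak, the Rab6a and Rab40b stretches hold 1 each, and the Rab3a peak holds 3.

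A peak was assigned to 37 of the 59 Rab genes (62.7%, interval 50 to 73.9). Among the other 21879 protein-coding genes the share was 39.5%. A peak centre within 2 kb of a TSS was found for 26 Rab genes (44.1%, interval 32.2 to 56.7), against 29.6% of the other genes. More than 1 peak was assigned to 12 of the 59 Rab genes (20.3%) and to 13.7% of the other genes. There were 25 Rab genes with 1 peak, 9 with 2 peaks, 2 with 3 peaks (Rab27a and Rab40c) and 1 with 4 peaks, Rab6b.

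The Rab genes and the other genes were also compared among genes of like CpG content and, separately, among genes of like length. A start was called CpG-rich where the 1-kb window around a TSS had an observed-to-expected CpG ratio of at least 0.6 and a GC content of at least 50%. This held for 39 Rab genes (66.1%) and for 51.2% of the others. Among genes with a CpG-rich start, 28 of 39 Rab genes had an assigned peak (71.8%, interval 56.2 to 83.5) against 59.4% of the other genes. In the same genes, 23 Rab genes had a peak within 2 kb (59%, interval 43.4 to 72.9) against 49.2%. Both intervals take in the share of the other genes, so among genes with CpG-rich starts a difference was not detectable with 39 members. Without a CpG-rich start, 9 of 20 Rab genes had an assigned peak (45.0%, interval 25.8 to 65.8), against 18.8% of the other genes. Only 3 of those 20 had a peak within 2 kb (15.0%, interval 5.24 to 36, against 8.99%). This interval takes in the share of the other genes. Median gene length was 23.2 kb for Rab genes and 17.4 kb for the others. Among genes of 10 to 100 kb, 28 of 45 Rab genes had an assigned peak (62.2%, interval 47.6 to 74.9) against 42.9% of the others, and 23 had one within 2 kb (51.1%, interval 37 to 65) against 34.2%. Neither interval takes in the share of the other genes, but CpG content was not matched in this comparison. Rab genes with an assigned peak had a median length of 23.2 kb and those without 25.6 kb.

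**Figure D1:**
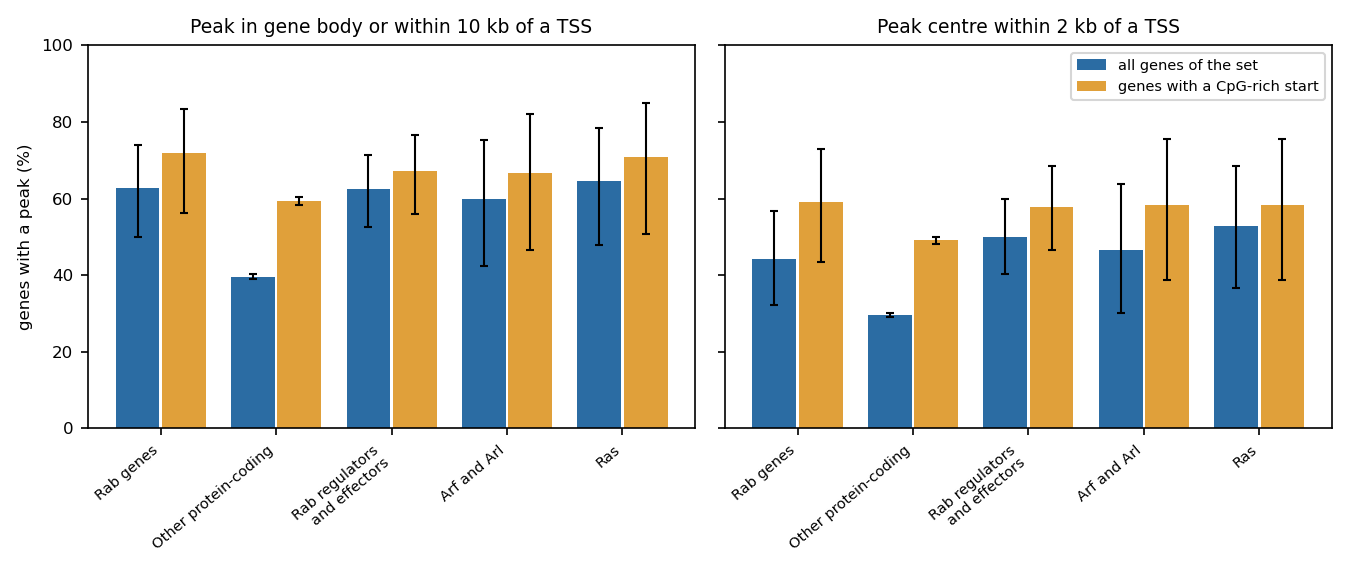
Percentage of genes with an EGR1 peak by the wide rule (left, gene body or 10 kb of a TSS) and within 2 kb of a TSS (right), for Rab genes, other protein-coding genes and related lists; bars are shares over all genes of a set (blue) or those with a CpG-rich start (orange), and error bars are 95% Wilson intervals. The Rab bars reach 62.7% and 44.1% over all members, against 39.5% and 29.6% for other genes.

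Other families of small GTPases (Arf and Arl, Ras) and the proteins that work with Rabs gave shares of genes with an assigned peak within the interval of the Rab genes. Of 96 Rab regulators and effectors (exchange factors, GTPase-activating proteins, and effectors such as tethers and motor adaptors), 60 had an assigned peak (62.5%) and 48 a peak within 2 kb (50%). The Arf and Arl genes, which act in vesicle coat formation and at the cilium, had an assigned peak in 18 of 30 cases (60%), and the Ras family in 22 of 34 (64.7%). Within 2 kb their shares were 46.7% and 52.9%. These and the 50% of regulators and effectors were above the 44.1% of Rab genes but within the Rab interval (32.2 to 56.7).

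Within the family, the CpG content of the gene start was compared between genes with and without a peak. The highest CpG ratio over the TSSs of a gene had a median of 0.77 in the 26 Rab genes with a peak within 2 kb. Of these 26, 23 had a CpG-rich start. The median was 0.57 in the 11 genes with peaks only farther away, of which 5 had a CpG-rich start. It was 0.64 in the 22 genes without a peak, of which 11 had a CpG-rich start. The groups overlapped widely. Rab23, a regulator of hedgehog signalling at the cilium, had the highest ratio of the family (1.09) and Rab2a 1.02, and neither had a peak. The 3 genes with a peak within 2 kb and no CpG-rich start were Rab26, Rab27a and Rab5b, with ratios of 0.55, 0.52 and 0.58.

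**Figure D2:**
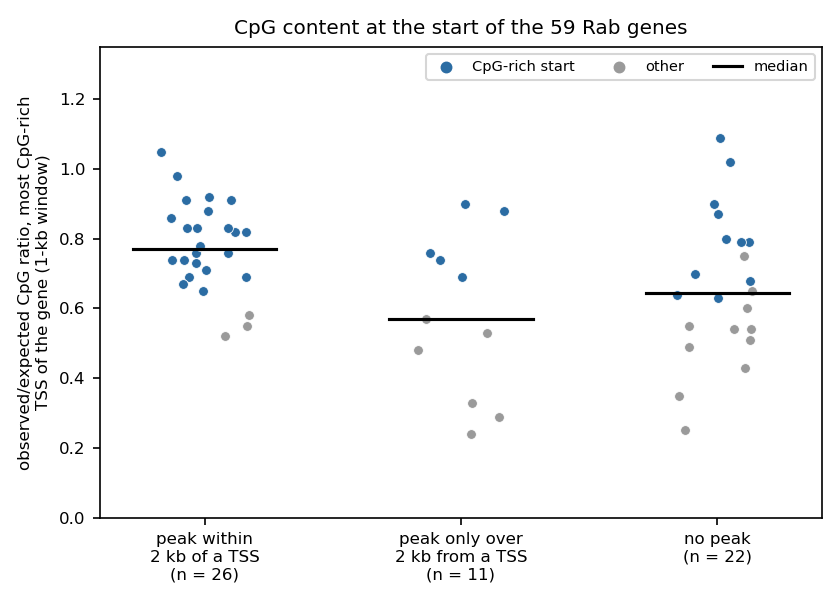
Observed-to-expected CpG ratio of the most CpG-rich TSS (1-kb window) of each of the 59 Rab genes, split by whether the gene has a peak within 2 kb of a TSS, only farther peaks, or none; points are genes, blue for a CpG-rich start, and bars are medians (0.77, 0.57 and 0.64). Genes with high ratios occur in all 3 groups.

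Of the 53 Rab peaks, 35 lay within 2 kb of a TSS of their Rab gene, 28 of them within 500 bp and 24 within 250 bp. Their median distance was 110 bp, against 140 bp for the same pairs of other genes. There were 23 upstream of the TSS (65.7%, against 60.2% of other genes) and 12 downstream. By annotation, 27 of the 53 peaks had their centre in the 2 kb upstream of a TSS of the Rab gene. Introns held 12, non-coding exons 2, a 5′UTR 1 and a 3′UTR 1, and 6 lay farther upstream and 4 downstream of the gene. In 23 genes a near peak sat at the first TSSs of the gene (within 500 bp of its 5′ end). In 3 genes near peaks sat only at an internal TSS, and these were Rab12, Rab15 and Rab34.

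**Figure D3:**
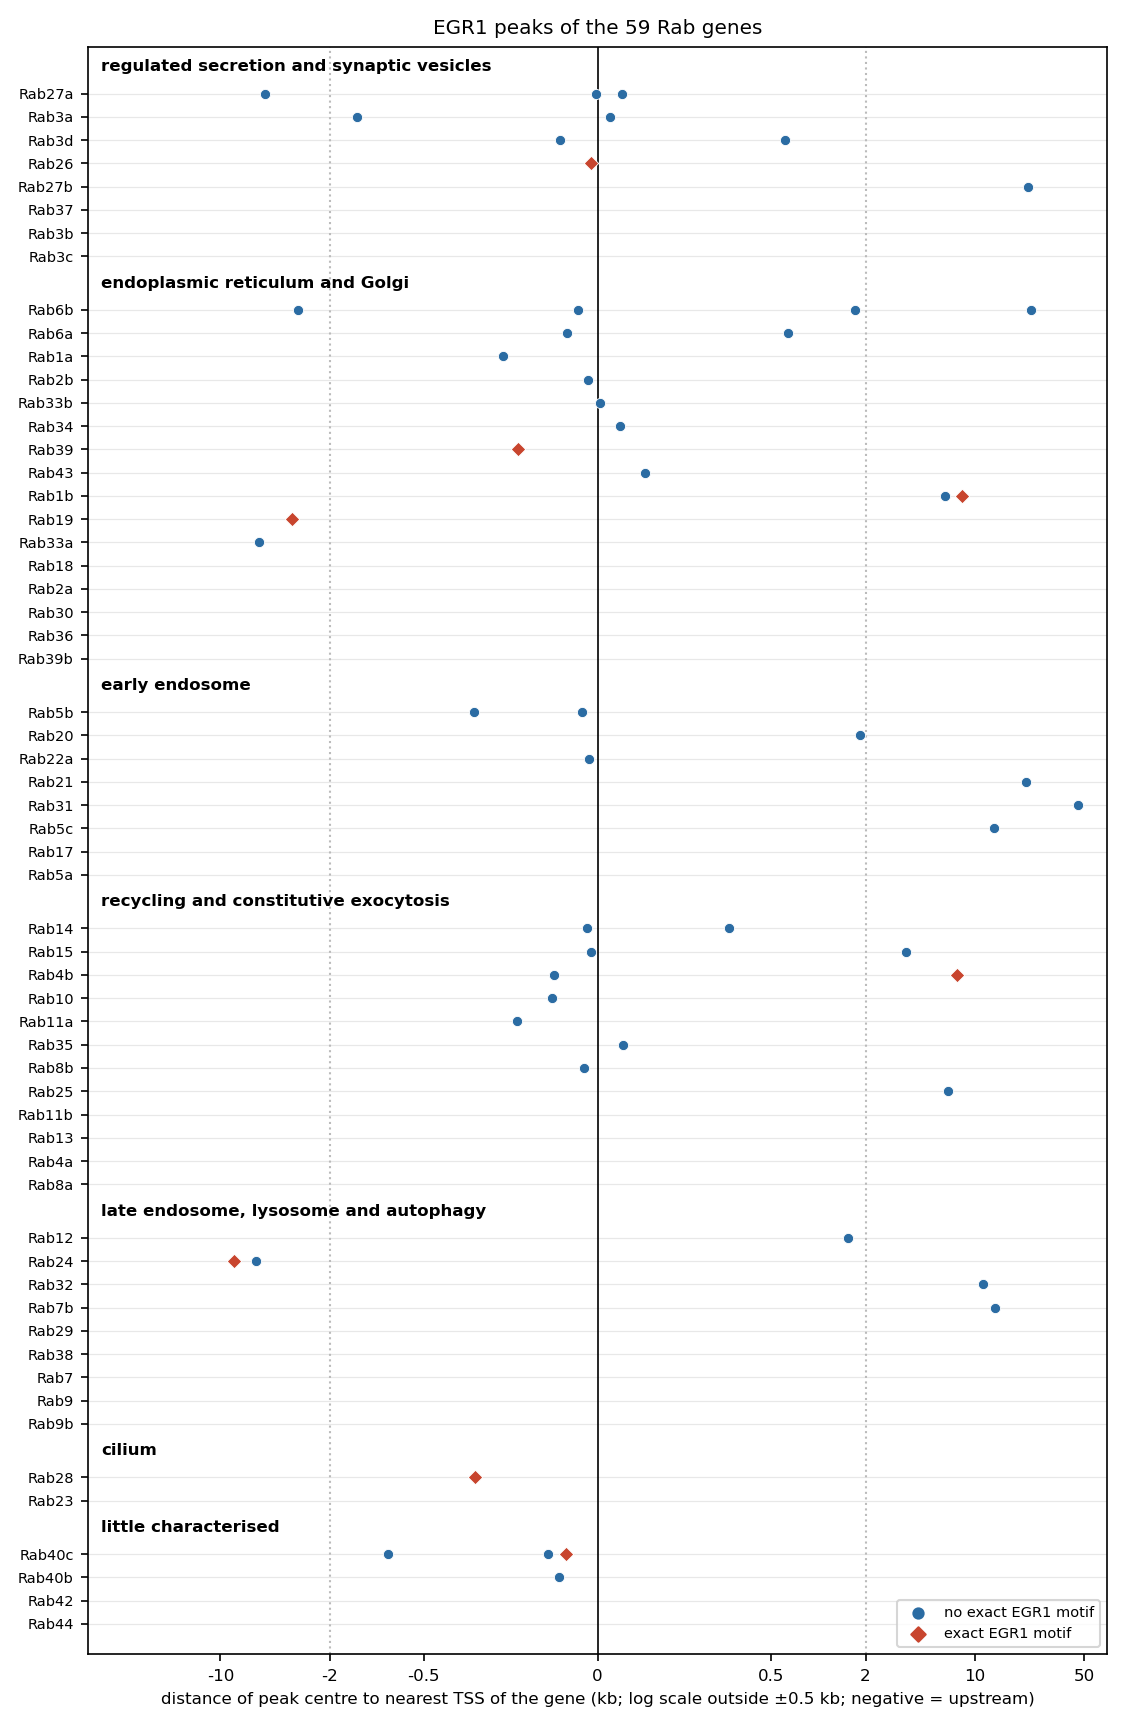
Distance in kb from each EGR1 peak centre to the nearest TSS of its Rab gene (linear within 0.5 kb, log scale outside, negative upstream), with 1 row for each of the 59 genes ordered by role; red diamonds are peaks with an exact EGR1 word and dotted lines mark 2 kb. Most peaks gather at the TSS, and 22 genes have none.

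Of the 8 Rabs of regulated secretion and synaptic vesicles, 5 had a peak (62.5%, interval 30.6 to 86.3) and 4 had one within 2 kb (50%, interval 21.5 to 78.5). Here and in the groups below, the shares of other genes to set beside these are 39.5% and 29.6%, and no difference between groups was tested. Rab3a, the main Rab of synaptic vesicles, had one peak 1342 bp upstream of its TSS (IDR 2.37e-07) and a less reproducible one 37 bp downstream (IDR 0.00119). Its paralog Rab3d, known from secretory granules of exocrine cells, had peaks 108 bp upstream (IDR 3.48e-07) and 607 bp downstream (IDR 0.00488). Rab3b and Rab3c, which also sit on secretory vesicles, had none. Rab27a, a Rab of granule and exosome release, had a peak 6 bp upstream of its TSS with an IDR of 0.0176, the highest of all Rab peaks. A further Rab27a peak lay 71 bp downstream of an internal TSS near its 3′ end (IDR 0.00743), and its most reproducible one (IDR 8.80e-05) lay 5211 bp upstream and only 8 bp from the TSS of Pigb. Rab27b had a single intronic peak 21982 bp into the gene (IDR 6.97e-07), and Rab37 had none.

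Rab26, which has been tied to secretory granules and to the clustering of synaptic vesicles, carried the second most reproducible Rab peak (IDR 3.44e-08). Rab26 (ENSMUSG00000079657.10) lies at chr17:24527241-24534210 on the minus strand, and its 189-bp peak (chr17:24533651-24533839) is centred 19 bp upstream of an annotated TSS. Its GC content was 70.4% and its CpG ratio 0.80.

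The 16 Rabs of the endoplasmic reticulum and Golgi included 11 with a peak (68.8%, interval 44.4 to 85.8), 8 of them within 2 kb (50%, interval 28 to 72). Rab6a, which acts in transport at the Golgi, had a peak 87 bp upstream of its TSS (IDR 4.02e-08) and a second one 635 bp downstream (IDR 1.33e-05). The first lies 315 bp and the second 24 bp from the TSS of Mrpl48, so neither can be assigned to Rab6a alone. Over the family, 4 near peaks of 3 genes (Rab6a, Rab2b and Rab4b) also lay within 2 kb of another protein-coding TSS. Rab6b (ENSMUSG00000032549.7), the paralog known for its expression in brain, had the most peaks of the family. They lay 3182 bp upstream (IDR 0.00518), 56 bp upstream (IDR 7.94e-05), 1711 bp downstream (IDR 0.00142) and 22871 bp downstream (IDR 0.000704) of its TSSs, on the plus strand of chr9:103111787-103185276. The peak at 56 bp upstream had a GC content of 74.8%, and none of the 4 held the exact word. The nearest TSS of another protein-coding gene was 57634 bp from the farthest downstream of these peaks.

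Rab39, a Rab of the Golgi and endosomes, had 1 peak 228 bp upstream of its TSS at chr9:53706395-53706525 (IDR 1.87e-07, GC content 71.0%, CpG ratio 0.92). The gene (ENSMUSG00000055069.3) lies at chr9:53684110-53706232 on the minus strand. The remaining near peaks in this group belonged to Rab33b (8 bp downstream, IDR 1.70e-06), Rab2b (27 bp upstream, 0.00119), Rab34 (65 bp downstream, 0.00141), Rab1a (273 bp upstream, 0.0146) and Rab43 (137 bp downstream, 0.0171). The Rab2b peak lies 7 bp from the TSS of Tox4, a shared promoter. Rab1b, Rab19 and Rab33a had farther peaks only, and Rab18, Rab2a, Rab30, Rab36 and Rab39b had none.

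Of the 8 early endosome Rabs, 6 had a peak (75%, interval 40.9 to 92.9) and 3 had one within 2 kb (37.5%, interval 13.7 to 69.4), the latter near the 29.6% of other genes. Rab22a, a regulator of early and recycling endosomes, held the most reproducible peak of the family, 25 bp upstream of its TSS (IDR 3.08e-08, GC content 70.7%). Among the Rab5 paralogs, the master regulators of early endosomes, Rab5b had peaks 44 and 357 bp upstream (IDR 0.000473 and 0.0115). Rab5c had 1 intronic peak (IDR 0.00974) and Rab5a had none. Rab20 had a peak 1843 bp downstream of its TSS (IDR 0.00105), Rab21 and Rab31 had intronic peaks 21366 and 46006 bp from their TSSs, and Rab17 had none.

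In the 12 Rabs of recycling and constitutive exocytosis, 8 had a peak (66.7%, interval 39.1 to 86.2) and 7 had one within 2 kb (58.3%, interval 32 to 80.7). The near peaks with low IDR belonged to Rab10, which acts in exocytosis and in axon growth (130 bp upstream, IDR 2.71e-07, the highest CpG ratio of all Rab peaks at 1.13), Rab14 (30 bp upstream, 4.36e-07, and 377 bp downstream, 1.44e-06) and Rab4b (126 bp upstream, 4.46e-07). Rab11a, the central Rab of recycling endosomes, had a peak 231 bp upstream (IDR 9.57e-06), and Rab8b, which acts in exocytosis and at the cilium, had one 39 bp upstream (IDR 1.25e-05). Rab15 had a near peak 20 bp upstream of an internal TSS (IDR 0.000612) and Rab35 one 74 bp downstream of its TSS (IDR 0.00071). Rab25 had a peak only downstream of the gene, and Rab11b, Rab13, Rab4a and Rab8a had none.

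The 9 Rabs of late endosomes, lysosomes and autophagy included 4 with a peak (44.4%, interval 18.9 to 73.3) and 1 with one within 2 kb (11.1%, interval 1.99 to 43.5). That gene was Rab12, whose peak lay 1538 bp downstream of an internal TSS (IDR 0.0116). This TSS belongs to a non-coding transcript and lies 19410 bp inside the gene. Rab32, which acts in melanosome formation, had an intronic peak 11315 bp from its TSS (IDR 0.0151), and Rab24 and Rab7b had farther peaks only. Rab7, the main Rab of late endosomes, had no peak although its start was CpG-rich (ratio 0.80), and Rab9, Rab9b, Rab29 and Rab38 had none either. The interval takes in the share of other genes (29.6%), and the difference from the other roles was not tested.

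Both remaining groups are small. Rab28, a Rab linked to photoreceptor cilia, had a peak 354 bp upstream of its TSS (chr5:41708387-41708636, IDR 8.99e-08, GC content 57.2%, CpG ratio 0.52), in front of a gene (ENSMUSG00000029128.12) that spans chr5:41624976-41708157 on the minus strand. Rab40b and Rab40c, which carry a SOCS box and form ubiquitin ligases, both had near peaks, and Rab42 and Rab44 had none. The Rab40b peak lay 110 bp upstream (IDR 7.09e-08). Rab40c (ENSMUSG00000025730.14, minus strand, chr17:25882114-25919727) had peaks 143 and 854 bp upstream of its first TSS (IDR 0.00023 and 0.00335). Its peak with the exact word (IDR 1.58e-07) lay 91 bp upstream of the TSS of a non-coding transcript, 6095 bp inside the gene, and had a CpG ratio of only 0.33.

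Close paralogs were compared for whether they had a peak. Grouping the genes by number gave 14 groups with 31 genes. All members had a peak within 2 kb in 2 groups (Rab6 and Rab40), none had one in 2 (Rab7 and Rab9), and in 10 groups some had one and others not. By the wide rule the groups were 5 with a peak in all members, 1 with none and 8 mixed. A near peak was found in 44.1% of all Rab genes, so a mixed group is by itself no result about paralogs. By the wide rule, exactly 1 of a pair had a peak for Rab11a over Rab11b, Rab2b over Rab2a, Rab39 over Rab39b, Rab4b over Rab4a, Rab8b over Rab8a and Rab7b over Rab7. Of the 6 members without a peak, 5 had a CpG-rich start, with ratios of 0.79 for Rab11b, 1.02 for Rab2a, 0.63 for Rab4a, 0.79 for Rab8a and 0.80 for Rab7. Their partners with a peak had ratios of 0.78 for Rab11a, 0.83 for Rab2b, 0.67 for Rab4b, 0.83 for Rab8b and 0.24 for Rab7b. In the sixth pair, Rab39b had no CpG-rich start (ratio 0.75, but a GC content under 50%) and Rab39 had one (0.76). The Rab7b peak lay in an intron, 13375 bp from its nearest TSS (IDR 0.00467), and held no CpG at all. A gene without a peak in the list had none that passed the IDR threshold of 2%, which does not show that EGR1 was absent there.

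The 18 peaks over 2 kb from a TSS of their Rab gene were spread over introns, flanks and neighbouring promoters. For 11 Rab genes these were the only peaks. Of the 18 peaks, 9 lay within 2 kb of the TSS of another protein-coding gene. The peak assigned to Rab19 lay 35 bp from the TSS of Slc37a3, that of Rab33a 83 bp from Aifm1, and the downstream peak of Rab4b 2 bp from Egln2. The peaks assigned to Rab24 lay 350 and 1474 bp from Mxd3, and those of Rab1b 442 and 1293 bp from Cnih2. A peak list does not tell which of the neighbouring genes, if any, such a site acts on. When each peak was given only to the nearest protein-coding TSS, 40 of the 53 Rab peaks had their own Rab gene as the nearest, and the share of Rab genes with a peak was 50.8% against 31.3% of other genes.

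The exact word was found in 8 of 53 Rab peaks (15.1%, interval 7.85 to 27.1), against 18.2% of the 10036 peaks assigned to other protein-coding genes. Near a TSS the share was 4 of 35 (11.4%, interval 4.54 to 26.0) against 22.6%, and far from it 4 of 18 (22.2%, interval 9 to 45.2) against 7.48%. The 4 far peaks are those by the TSSs of Slc37a3, Mxd3, Cnih2 and Egln2. The near interval takes in the share of the other peaks, on 4 peaks. The far interval does not, but the far sets were defined unlike each other. Far Rab peaks were far from the TSSs of their Rab gene only, and 9 of the 18 lay within 2 kb of another protein-coding TSS. The other far peaks lay over 2 kb from every protein-coding TSS, so the far shares here and below are not comparable. All 8 words lay within 50 bp of the peak centre, at a median of 16.5 bp. The variant GCGTGGGCG, found in 4.66% of the other peaks, was in none of the 53 Rab peaks, which allows a share of up to 6.76% (upper Wilson bound). With 1 mismatch allowed, 37 Rab peaks had a match (69.8% against 73.4%), 30 of the 35 near ones (85.7% against 82.6%) and 7 of the 18 far ones (38.9% against 51.0%).

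The Rab peaks with the word had the lower median IDR, a difference that was not tested. Their IDRs ran from 3.44e-08 to 0.000595 with a median of 1.72e-07, while the 45 peaks without it had a median of 0.000704 and ran from 3.08e-08 to 0.0176, so the groups overlapped. As a set, the Rab peaks were near the rest in reproducibility, with a median IDR of 0.00023 against 0.000237 for peaks of other genes, and 32 of 53 (60.4%) at an IDR of 0.001 or less against 61.6%. Base composition was also close, with a median GC content of 63.4% against 62.3% and a median CpG ratio of 0.67 against 0.66. Far Rab peaks had a median CpG ratio of 0.38 and near ones 0.77, against 0.29 and 0.77 for the peaks of other genes. The far values are not comparable. Of the 18 far Rab peaks, 9 lay within 2 kb of another protein-coding TSS, and such peaks were left out of the other far set.

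**Figure D4:**
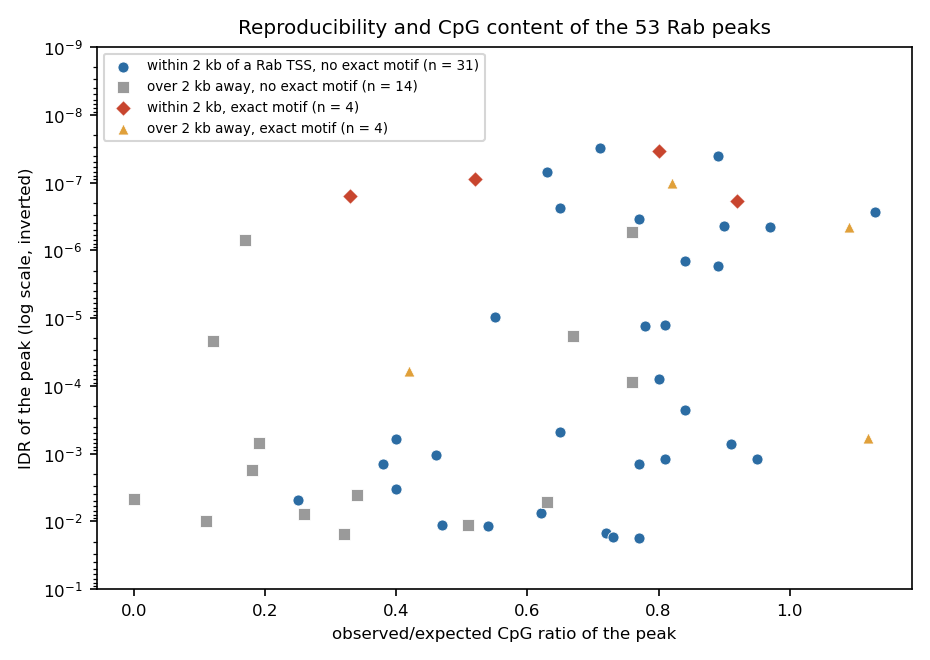
IDR (log scale, inverted, so reproducible peaks are at the top) against the observed-to-expected CpG ratio for each of the 53 Rab peaks; colours and shapes separate peaks within 2 kb of a Rab TSS from farther ones, and those with an exact EGR1 word from those without. The 8 peaks with the word lie at an IDR of 0.000595 or below, and their CpG ratios run from 0.33 to 1.12.

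Other promoter words, chosen after the list was opened, were counted in the same way on both strands. The GC box GGGCGG, which can overlap the EGR1 word, was in 36 Rab peaks (67.9%, interval 54.5 to 78.9, against 60.4%). The CCAAT word was in 20 Rab peaks (37.7%, interval 25.9 to 51.2, against 24.7%), and in 16 of the 35 near a TSS (45.7%, interval 30.5 to 61.8, against 25.9%). The cAMP response element TGACGTCA was in none, against 1.46% of the other peaks. No match in the Rab peaks allows a share of up to 6.76% (upper Wilson bound), so this shows no difference.

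The RefSeq promoter table, on the same genome build, held 250 bases before to 50 after the start for 48 of the 59 Rab genes, in 60 promoters. The exact EGR1 word was in 1 of these, that of Rab39 (1.67%), against 4.81% of 20150 promoters of all protein-coding genes. Rab26, whose peak with the exact word is centred 19 bp upstream of an annotated TSS, had no promoter in the table. The Rab shares leave it out. Of the Rab genes with a promoter in the table, 25 had a peak within 2 kb, and 1 of these had the word. Among other genes with a peak within 2 kb the share was 13.5%, and among those without it 1.89%. The Rab shares rest on 1 match, too few to show a difference, and none was tested. No match says only that these letters are not in that window.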

How the data were processed

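EGR1 ChIP-seq of mouse frontal cortex was analysed from the deposited peak list. The authors quality-trimmed reads, aligned them with Bowtie against mm10 (the submitters' processing notes name Bowtie2 2.2.9 and bedtools 2.26.0), called peaks per replicate with SPP and kept those at an IDR of 2% in the merged replicates. The deposited IDR is read like a q-value, and the deposited positions were taken as BED intervals and are printed counted from 1.

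Peak centres were compared with GENCODE M21 and the GRCm38.p6 sequence in Python 3.11.15 with pandas 2.3.3. The CpG ratio is the CpG count times the length, divided by the product of the C and G counts. Depth is unknown, so precision is that of shares, as 95% Wilson intervals. The assignment and word search were tested on simulated data.

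Members and lists were chosen with earlier results of these data known. All members are accounted for, but 1 sequence and 1 related gene list are not reported here. Values in full were given for those with a near peak holding the word, the one with most peaks, and pairs of paralogs of which only 1 had a peak. Other members with a near peak are given with distance and IDR. Alternatives covered IDR thresholds, distances, transcript sets, CpG-rich starts and the word searched.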

Additional observations from a re-analysis of the deposited data

How the results depend on the processing

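The share of Rab genes with a peak was above that of other protein-coding genes under every alternative run. This describes the sign only, and with CpG-rich starts the intervals took in the share of the other genes. The median number of TSSs was 4 for Rab genes and 3 for the others, and its effect was not tested. The runs reuse the same peak list and genes, so they are not independent. By the wide rule the difference was 23.2 percentage points and ran from 12.4 (CpG-rich starts) to 24.4, and within 2 kb it was 14.5 points and ran from 5.38 (CpG-rich starts with 2 or more TSSs) to 16.9. Restricted to the 50% of peaks lowest in IDR, the shares of Rab genes were 39.0% and, within 2 kb, 27.1% (other genes 25.8% and 19.1%). With peaks at an IDR of 0.001 or less, the wide share was 44.1% (others 28.9%). With CpG-rich starts only, the share within 2 kb was 59% (interval 43.4 to 72.9, which takes in the 49.2% of others). The share of Rab peaks with the word was 0% for GCGTGGGCG alone and 69.8% with 1 mismatch, and its difference from other peaks went from -3.12 points to -11.2 near a TSS, and to -0.423 with peaks widened by 50 bp to each side (18.9% against 19.3%, and 17.1% against 24% near a TSS). The restrictions on gene length (10 to 100 kb), autosomes and the number of TSSs were chosen after seeing the data. No replicate could be left out, because the list is merged, and the unknown depth limits what a missing peak shows. No paired analysis was possible, because the merged list holds no value per replicate, and no test was run.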
